A study of Homo sapiens with 2 samples.

Results

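PC9 cells that carried 1 of 4 sgRNAs named for PGAM1 were set against PC9 cells that carried 1 of 4 non-targeting sgRNAs. PC9 is a human lung adenocarcinoma line that depends on an activating mutation of the EGF receptor. A cell counted as a PGAM1 cell when a PGAM1 sgRNA was its most abundant guide, with at least 5 unique molecular identifiers (UMIs, each 1 captured molecule) and at least 80% of the cell's guide UMIs. This gave 333 PGAM1 cells among the 5556 cells with 1 assigned sgRNA (5.99%, exact 95% binomial interval 5.38 to 6.65%), and 700 cells with a non-targeting sgRNA. PGAM1 sgRNAs 1, 2, 3 and 4 were found in 37, 54, 107 and 135 cells, and non-targeting sgRNAs 1, 2, 3 and 4 in 300, 164, 159 and 77 cells.

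The cells came from 1 pooled lentiviral culture, read by droplet 3' RNA sequencing with direct capture of the guide in each cell. Per the labels, infection reached about 40% of cells with polybrene at 8 ug/ml, all cells were selected with puromycin at 1 ug/ml, and the experiment is called day 8, although a first harvest on day 7 is also mentioned. The same labels speak of knockout, of dCas9 (a Cas9 that binds DNA without cutting it) and of knockdown. Which of these was used is not settled here, and it was shared by PGAM1 and non-targeting cells. Their targets are given as CTNNB, ATF, MYC and JUN, with PGAM1 not among them, while the data hold PGAM1 guides beside guides to CTNNB1, JUN, CTCF, ATF4 and MYC. All groups are 1 cell line in 1 culture and 1 library, so a p-value here reflects how far sgRNAs of the same target scatter, which may be technical. For edgeR this scatter was estimated over all 34 sgRNAs in the fit, not over the PGAM1 and non-targeting sgRNAs alone. Summed counts per sgRNA ranged from 499659 to 1615600 UMIs with PGAM1 sgRNAs and from 1038200 to 3869915 UMIs with non-targeting sgRNAs. No barcode occurred more than once, and 2 PGAM1 cells also held at least 5 UMIs of guides to another target.

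PGAM1, phosphoglycerate mutase 1, is the glycolytic enzyme that turns 3-phosphoglycerate into 2-phosphoglycerate, the step before enolase. Its substrate is also the starting point of serine synthesis, and glycolytic intermediates above it feed the pentose phosphate pathway. PC9 cells are known for strong EGF receptor signalling through the MAPK cascade, which drives immediate early genes such as FOS, FOSB and EGR1.

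The promoters of 4 genes that changed are shown because the factors known to act on them link these genes to signalling or to sugar supply. They are the 250 bases before the RefSeq start in GRCh38.p14, in the gene's own direction, and capitals mark the motifs. TGACG is the core of the cAMP response element, the CArG box is the site of serum response factor, and the carbohydrate response element searched for in TXNIP is CACGAG, any 5 bases and CACGAG again. Each motif was searched on both strands, so that TGACG can appear as CGTCA, and no marked motif overlaps another. TGACG occurred in 21.2% of 35116 promoters of the same length, the CArG box in 1.16% and this exact CACGAG pattern in 0.0057%, which is 2 promoters. Other forms of the carbohydrate response element were not searched. The 0.0057% is therefore not the share of promoters with such an element, and it lends no weight to the match in TXNIP. FOS lies at chr14:75278578-75278827 on the plus strand, FOSB at chr19:45467746-45467995 on the plus strand, EGR1 at chr5:138465229-138465478 on the plus strand and TXNIP at chr1:145996580-145996829 on the minus strand.
FOS: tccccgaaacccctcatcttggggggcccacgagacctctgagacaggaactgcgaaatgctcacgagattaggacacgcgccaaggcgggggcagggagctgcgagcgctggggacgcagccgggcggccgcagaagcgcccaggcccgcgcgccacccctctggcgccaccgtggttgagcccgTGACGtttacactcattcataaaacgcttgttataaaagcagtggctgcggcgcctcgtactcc
FOSB: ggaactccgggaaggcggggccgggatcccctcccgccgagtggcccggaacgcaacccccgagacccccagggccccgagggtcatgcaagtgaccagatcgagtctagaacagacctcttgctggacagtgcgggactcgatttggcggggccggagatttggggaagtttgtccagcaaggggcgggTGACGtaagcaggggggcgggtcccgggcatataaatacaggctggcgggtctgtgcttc
EGR1: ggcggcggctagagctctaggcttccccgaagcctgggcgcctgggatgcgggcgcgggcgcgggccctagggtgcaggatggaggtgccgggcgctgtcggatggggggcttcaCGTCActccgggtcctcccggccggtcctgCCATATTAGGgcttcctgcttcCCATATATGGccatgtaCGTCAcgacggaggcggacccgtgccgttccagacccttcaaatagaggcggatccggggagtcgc
TXNIP: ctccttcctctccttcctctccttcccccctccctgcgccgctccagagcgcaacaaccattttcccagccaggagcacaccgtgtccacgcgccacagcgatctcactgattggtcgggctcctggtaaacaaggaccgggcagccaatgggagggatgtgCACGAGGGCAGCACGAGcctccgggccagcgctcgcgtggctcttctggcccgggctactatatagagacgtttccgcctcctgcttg
FOS held 1 TGACG, 64 bases before its start, and FOSB 1 TGACG, 60 bases before its start. No CArG box was found in these 250 bases of FOS or FOSB. Bases further upstream were not searched, so a CArG box there would be missed. EGR1 held 2 TGACG motifs and 2 CArG boxes, and TXNIP held 1 match to the searched carbohydrate response element pattern, 88 bases before its start. A match describes these letters and is not evidence of binding.

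The PGAM1 transcript itself (ENSG00000171314, GRCh38.p14 chromosome 10, 97426191 to 97433444) was lower with all 4 PGAM1 sgRNAs. It had 102, 73.1, 65.5 and 53.2 CPM with PGAM1 sgRNAs 1 to 4, against 213, 206, 204 and 209 CPM with non-targeting sgRNAs 1 to 4. CPM are counts per 1000000 gene UMIs of an sgRNA. Every PGAM1 sgRNA lay below every non-targeting sgRNA, with sgRNA 1 the weakest and sgRNA 4 the strongest. PGAM1 fell by 1.66 on the log2 scale (SE 0.092, edgeR adjusted p = 8.5e-24), and the call held in each fit that left out 1 of the 8 sgRNAs. With guides to the other 5 targets the mean PGAM1 level lay between 205.6 CPM (CTCF) and 224.0 CPM (MYC). The library reads the 3' end of transcripts, and the sites of the sgRNAs are not analysed here, so these counts measure PGAM1 mRNA and say nothing of protein.

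**Figure D1:**
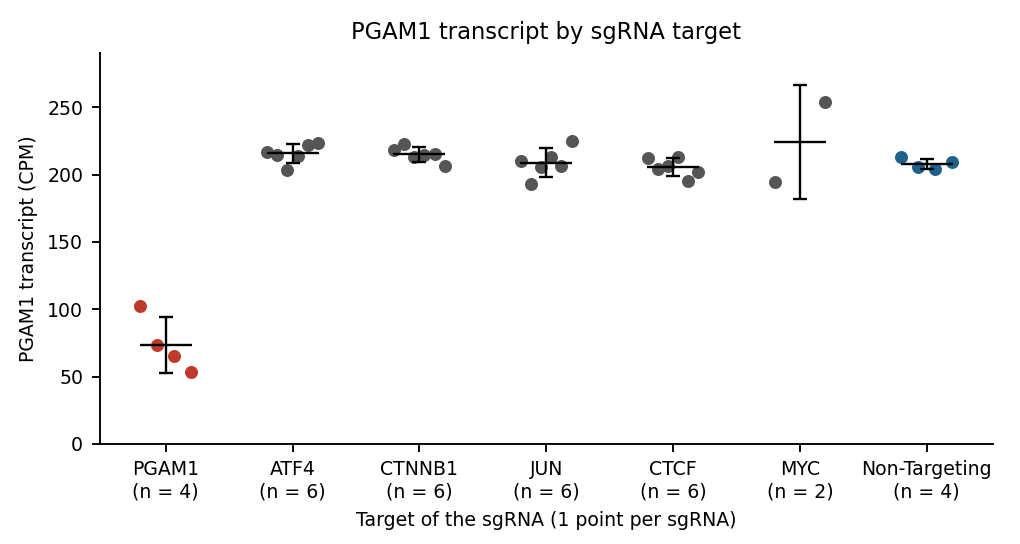
PGAM1 transcript level in CPM (vertical axis) for each sgRNA (points), grouped by the target of the sgRNA, with black lines for the mean and bars for the SD. The 4 PGAM1 sgRNAs lie between 53.2 and 102.1 CPM, below all other sgRNAs, and the 4 non-targeting sgRNAs lie between 204.3 and 212.9 CPM.

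In single cells, PGAM1 molecules were found less often with PGAM1 sgRNAs but were not gone. Cells were thinned to 5000 gene UMIs each, which left out 2 PGAM1 cells and 9 non-targeting cells that were shallower. At least 1 PGAM1 UMI remained in 21.6, 29.6, 32.7 and 15.8% of cells with PGAM1 sgRNAs 1 to 4, against 61.0, 63.4, 51.3 and 61.0% of cells with non-targeting sgRNAs 1 to 4. The groups did not overlap (difference of means -34.2 percentage points, exact two-sided permutation test p = 0.0286, the smallest that 4 against 4 allows, adjusted p = 0.10 over 7 measures). No PGAM1 UMI was seen in 251 of 331 PGAM1 cells (75.8%) and in 281 of 691 non-targeting cells (40.7%), and the means were 0.329 and 1.00 UMI per cell. Without thinning, 48.4% of cells per PGAM1 sgRNA and 85.7% per non-targeting sgRNA had a PGAM1 UMI. The median depth per cell was 12426 UMIs with PGAM1 sgRNAs and 12221 UMIs with non-targeting sgRNAs. The culture holds 1 cell line, so no cell type without PGAM1 gives a level for free RNA.

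**Figure D2:**
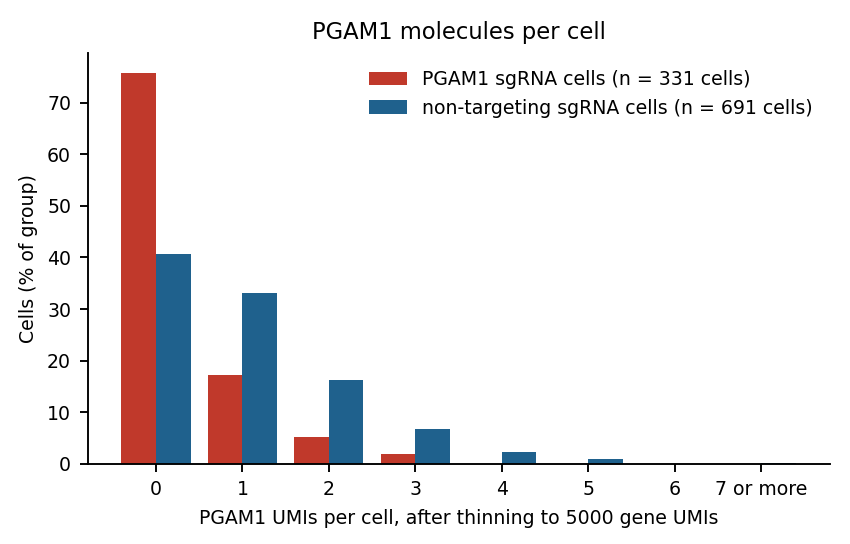
Share of cells in percent (vertical axis) by the number of PGAM1 UMIs found in the cell after thinning to 5000 gene UMIs (horizontal axis), for PGAM1 sgRNA cells (red) and non-targeting sgRNA cells (blue). Cells with 0 UMIs make up 75.8% of the PGAM1 cells and 40.7% of the non-targeting cells, and no PGAM1 cell has more than 3 UMIs.

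The other members of the PGAM family were low in both groups. PGAM2, the muscle form, and PGAM4, a near-identical retrogene copy of PGAM1 to which reads could be hard to assign, had 0 UMIs with all 8 sgRNAs. PGAM5, a mitochondrial phosphatase of the same fold, stood at 8.34 ± 1.74 CPM with PGAM1 sgRNAs, against 6.67 ± 1.95 CPM with non-targeting sgRNAs (SD, n = 4 each), and BPGM, the bisphosphoglycerate mutase, at 12.6 ± 2.70 CPM with PGAM1 sgRNAs, against 14.4 ± 3.13 CPM with non-targeting sgRNAs. Neither passed the test (PGAM5 log2 0.23, edgeR adjusted p = 0.87, and BPGM log2 -0.15, adjusted p = 0.91).

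Genes beside PGAM1 on chromosome 10 did not pass the test either. EXOSC1, an RNA exosome subunit whose nearer edge lies 2.46 kb past the end of PGAM1, had 98.1, 51.4, 82.4 and 61.9 CPM with PGAM1 sgRNAs 1 to 4, against 62.3, 67.3, 67.6 and 78.0 CPM with non-targeting sgRNAs 1 to 4. Those ranges overlap, with a log2 fold change of 0.07 (SE 0.12, edgeR adjusted p = 0.93). RRP12, a ribosome maturation factor 24.8 kb to the other side, averaged 8.97 ± 1.41 CPM with PGAM1 sgRNAs, against 8.96 ± 4.40 CPM with non-targeting sgRNAs (log2 -0.08, adjusted p = 0.97). The 10 nearest tested genes, 5 on each side, also hold TM9SF3, LCOR, ARHGAP19 and FRAT2 on the side of RRP12 and ZDHHC16, MMS19, UBTD1 and ANKRD2 on the side of EXOSC1. Their log2 fold changes lay between -0.16 (LCOR) and 0.57 (ANKRD2), and none was called. Of the 153 tested genes between PGAM1 and the end of its chromosome arm, none was called higher and 1 lower, with a median log2 fold change of -0.016. Of the 280 tested genes on the rest of chromosome 10, 4 were lower and none higher, with a median of -0.0036, against 29 lower and 10 higher of 11136 genes elsewhere or without a matched position. Those 4 were KLF6 and the neighbouring AKR1C1, AKR1C2 and AKR1C3 on the short arm.

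Across the transcriptome, 45 of 11570 tested genes were called in PGAM1 cells over non-targeting cells (0.389% of genes, edgeR adjusted p under 0.05). Of these, 10 were higher (0.0864%) and 35 lower (0.303%), PGAM1 included. The lower genes hold AP-1 and other immediate early genes, keratins of simple epithelium, aldo-keto reductases and mitochondrially encoded subunits of the respiratory chain. The higher genes hold TXNIP, MT2A and NUPR1 and an annexin. All 4 PGAM1 sgRNAs moved the same way in 44 of the 45 genes. In 39 of them the 4 PGAM1 and 4 non-targeting sgRNAs did not overlap, where 4.94% of all tested genes had no overlap (2.73% higher and 2.2% lower). An unadjusted p under 0.05 was reached by 1009 genes, DESeq2 called 66 genes, and fits without 1 sgRNA called between 19 and 36. Called or not, 5923 of the 11570 genes had a log2 fold change above 0 and 5647 below 0. Of the 45 calls, 14 held in all 8 fits that left out 1 sgRNA and 31 were lost in at least 1. The 14 were PGAM1, FOS, FOSB, KRT19, KRT8, KRT18, AKR1B10, AKR1C1, MT-ND5, MT-CYB, MT-CO2, PSCA, OLFML3 and ANXA3.

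**Figure D3:**
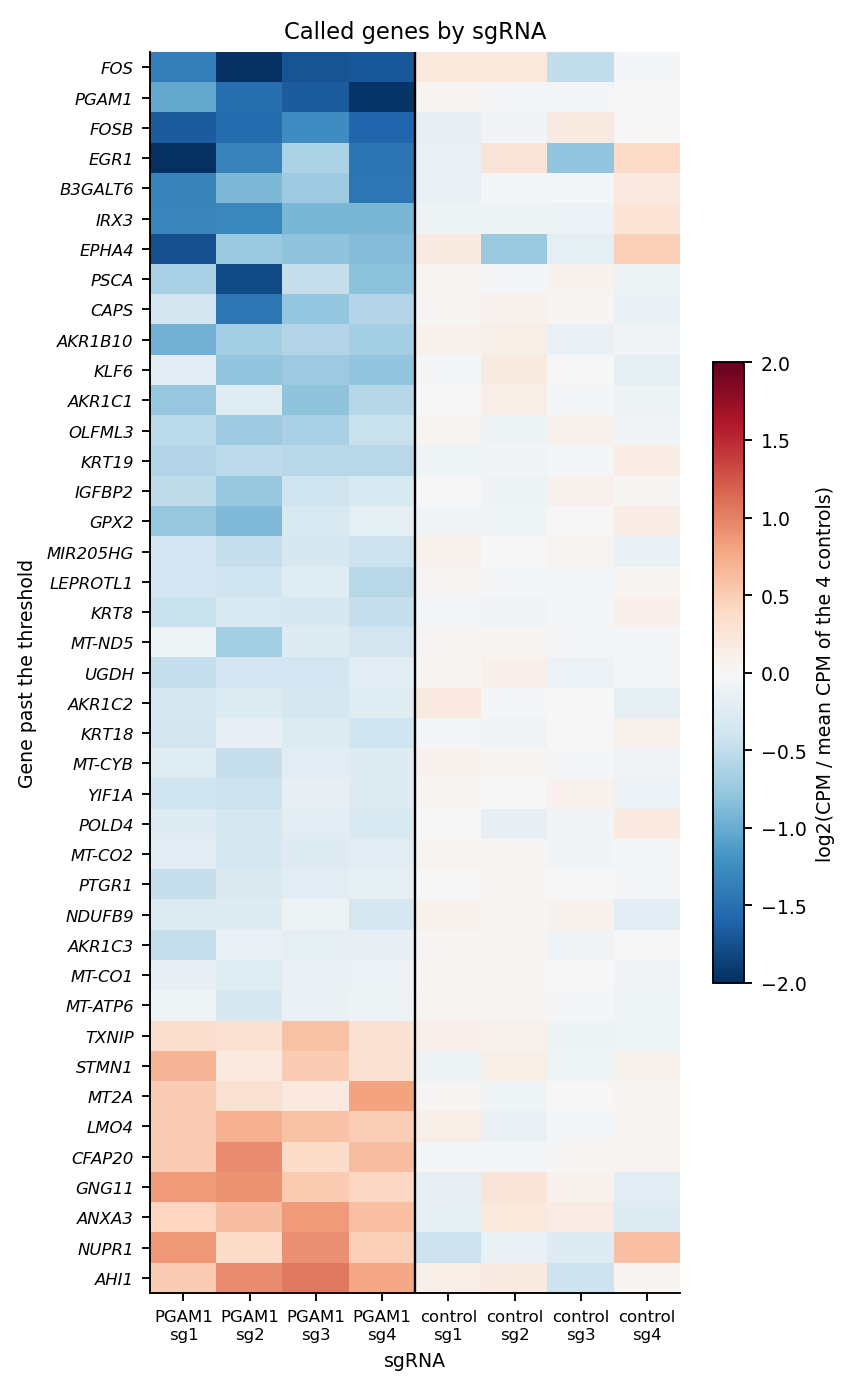
The called genes described in the text (rows, without S100A6, CSTB and NEURL1) by sgRNA (columns, with control for non-targeting), coloured by log2 of the CPM over the mean CPM of the 4 non-targeting sgRNAs. Blue is lower and red higher, and the row of FOS is blue in all 4 PGAM1 columns, as are those of FOSB and KRT19.

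FOS had the largest fall among the called genes. FOS and FOSB encode partners of JUN in the transcription factor AP-1, and both are immediate early genes, induced within minutes of growth factor signals. FOS had 38.0, 23.0, 29.6 and 30.3 CPM with PGAM1 sgRNAs 1 to 4, against 114, 113, 69.6 and 95.4 CPM with non-targeting sgRNAs 1 to 4. It fell by 1.78 on the log2 scale (SE 0.16, edgeR adjusted p = 5.5e-13), and no PGAM1 sgRNA reached the lowest non-targeting sgRNA. FOSB had 10.0, 10.8, 13.4 and 10.5 CPM with PGAM1 sgRNAs 1 to 4, against 28.2, 30.4, 35.8 and 31.8 CPM with non-targeting sgRNAs 1 to 4. Those groups did not overlap either, and FOSB fell by 1.45 on the log2 scale (SE 0.21, edgeR adjusted p = 3.6e-06). Sums over cells cannot tell fewer cells with a transcript apart from fewer transcripts per cell.

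No other AP-1 gene passed the test. Of 7 tested members, 2 were lower and none higher, and the list's median log2 fold change was -0.16, against 0.01 over all tested genes. JUN, the main partner of FOS, had a log2 fold change of -0.19 (adjusted p = 0.68), JUNB -0.14, JUND -0.16, FOSL1 0.09 and FOSL2 0.10, and none of these 5 passed the edgeR test. FOSL1 and FOSL2, the FOS relatives, were the only ones above 0.

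Among 18 other immediate early genes, 2 were lower and none higher, with a median of -0.09. EGR1, a zinc finger factor downstream of MAPK signalling, had 6.00, 10.8, 17.6 and 9.90 CPM with PGAM1 sgRNAs 1 to 4, against 25.1, 32.9, 15.9 and 35.6 CPM with non-targeting sgRNAs 1 to 4. It fell by 1.12 on the log2 scale (SE 0.23, edgeR adjusted p = 0.0048), but non-targeting sgRNA 3 lay below PGAM1 sgRNA 3, and the call was lost without PGAM1 sgRNA 4 (edgeR adjusted p = 0.10). EGR1 rested on only 3, 8, 25 and 16 UMIs with PGAM1 sgRNAs 1 to 4. Its call was also lost under a stricter guide rule and in cells with at most 10% mitochondrial UMIs (edgeR adjusted p = 0.18 and 0.36). The same held in G1-scored and in S- and G2/M-scored cells (edgeR adjusted p = 0.45 and 0.13). KLF6, a Kruppel-like factor, had 32.0, 21.7, 22.5 and 21.7 CPM with PGAM1 sgRNAs 1 to 4, against 36.7, 42.2, 37.3 and 32.7 CPM with non-targeting sgRNAs 1 to 4. Here the ranges were close, 32.0 CPM at the top of the PGAM1 sgRNAs against 32.7 CPM at the bottom of the non-targeting ones. KLF6 fell by 0.72 on the log2 scale (SE 0.18, edgeR adjusted p = 0.043), a call lost without PGAM1 sgRNA 2, 3 or 4 or non-targeting sgRNA 1, 2 or 3 (edgeR adjusted p up to 0.22). DUSP1, the immediate early phosphatase of MAP kinases, and IER2 had log2 fold changes of -1.25 and -0.42 without passing (edgeR adjusted p = 0.072 and 0.086).

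No gene of the EGF receptor and MAPK feedback list was called, in either direction, among 20 tested (median -0.05). EGFR itself had a log2 fold change of -0.02, and DUSP6 and SPRY4, negative regulators that follow ERK activity, -0.09 and 0.19. The smallest p belonged to DUSP5, an ERK phosphatase, at 18.0 ± 4.68 CPM with PGAM1 sgRNAs, against 26.4 ± 6.27 CPM with non-targeting sgRNAs (adjusted p = 0.42). FOS and FOSB were lower in each part of the cell cycle. In cells scored G1 the log2 fold change of FOS was -1.81 (adjusted p = 7.7e-10) and of FOSB -1.37 (adjusted p = 0.013), and in cells scored S or G2/M they were -1.79 (adjusted p = 3.8e-08) and -1.40 (adjusted p = 0.0053). Where mitochondrial UMIs made up 10% of a cell or less, FOS stood at -1.47 (adjusted p = 5e-06), whereas FOSB did not pass at -0.88 (adjusted p = 0.27). That subset leaves PGAM1 sgRNA 1 with under 20 cells and drops it, as does the G1 subset.

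The keratins of simple epithelium were lower. KRT19, a type I keratin, had 1533, 1601, 1560.3 and 1567 CPM with PGAM1 sgRNAs 1 to 4, against 2165, 2212, 2260.2 and 2549.6 CPM with non-targeting sgRNAs 1 to 4. All 4 PGAM1 sgRNAs lay below all 4 non-targeting sgRNAs, and KRT19 fell by 0.57 on the log2 scale (SE 0.054, edgeR adjusted p = 1.6e-12). KRT8 and KRT18 form the filament pair of simple epithelial cells. KRT8 had 1205, 1321, 1314 and 1185 CPM with PGAM1 sgRNAs 1 to 4, against 1588, 1567, 1614 and 1761 CPM with non-targeting sgRNAs 1 to 4. KRT18 had 3446, 3928, 3645 and 3368 CPM with PGAM1 sgRNAs 1 to 4, against 4320.0, 4230.0, 4432 and 4703 CPM with non-targeting sgRNAs 1 to 4. Neither overlapped between groups. KRT8 fell by 0.40 on the log2 scale (SE 0.049, edgeR adjusted p = 1.9e-08) and KRT18 fell by 0.32 on the log2 scale (SE 0.049, edgeR adjusted p = 1.1e-05). In S- and G2/M-scored cells KRT8 stood at -0.25 (adjusted p = 0.090), which ends its call, and KRT19 at -0.36 (adjusted p = 0.00031).

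Of 8 tested keratins, 3 were lower, none higher, and all 8 lay below 0, with a median of -0.24. KRT7, the type II keratin of glandular epithelium, was at 2367 ± 107 CPM with PGAM1 sgRNAs, against 2572 ± 196 CPM with non-targeting sgRNAs without passing (log2 -0.14, adjusted p = 0.55). The epithelial junction and identity list, with 19 tested members, had no call (median -0.05). MUC1, an apical mucin, was 8.64 ± 0.672 CPM with PGAM1 sgRNAs, against 14.9 ± 3.91 CPM with non-targeting sgRNAs (adjusted p = 0.26), and CLDN7, a tight junction claudin, 441 ± 13.5 CPM with PGAM1 sgRNAs, against 481 ± 18.8 CPM with non-targeting sgRNAs (adjusted p = 0.36).

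Aldo-keto reductases reduce aldehydes and ketones with NADPH, and several are targets of the antioxidant factor NRF2. Of 8 tested members, 4 were lower and none higher, and the median was -0.18. AKR1B10 had 170.1, 208, 222 and 207 CPM with PGAM1 sgRNAs 1 to 4, against 351, 362, 299 and 318 CPM with non-targeting sgRNAs 1 to 4. The groups did not overlap, and AKR1B10 fell by 0.72 on the log2 scale (SE 0.081, edgeR adjusted p = 1e-09). AKR1C1, a steroid-reducing member of the AKR1C cluster on chromosome 10, had 300.2, 426, 290.1 and 342 CPM with PGAM1 sgRNAs 1 to 4, against 504, 552, 496 and 472 CPM with non-targeting sgRNAs 1 to 4. It fell by 0.61 on the log2 scale (SE 0.094, edgeR adjusted p = 1.2e-05) with no overlap, although in G1-scored cells alone it stood at -0.44 (adjusted p = 0.19).

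AKR1C2 and AKR1C3 are close relatives of AKR1C1, so reads of these genes may be hard to assign to 1 of them. AKR1C2 had 276, 294, 277 and 298 CPM with PGAM1 sgRNAs 1 to 4, against 405, 348, 351 and 309 CPM with non-targeting sgRNAs 1 to 4. AKR1C3 had 558, 699.6, 682 and 694 CPM with PGAM1 sgRNAs 1 to 4, against 792, 797, 738 and 782 CPM with non-targeting sgRNAs 1 to 4. In both, all PGAM1 sgRNAs lay below all non-targeting sgRNAs, and sgRNA 1 stood apart for AKR1C3. AKR1C2 fell by 0.35 on the log2 scale (SE 0.068, edgeR adjusted p = 0.0023), a call lost without PGAM1 sgRNA 3 or non-targeting sgRNA 1 (edgeR adjusted p up to 0.13). AKR1C3 fell by 0.25 on the log2 scale (SE 0.060, edgeR adjusted p = 0.038), and its call was lost without PGAM1 sgRNA 1 or 3 or non-targeting sgRNA 1, 2 or 4 (edgeR adjusted p up to 0.20). The ubiquitous AKR1A1 and AKR1B1 had log2 fold changes of -0.11 and -0.08 and did not pass (edgeR adjusted p = 0.77 and 0.72).

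Among 21 other NRF2 targets, 2 were lower and none higher, with a median of -0.11. GPX2, an epithelial glutathione peroxidase, had 162, 149, 222 and 239.5 CPM with PGAM1 sgRNAs 1 to 4, against 264, 259, 271 and 302 CPM with non-targeting sgRNAs 1 to 4. It fell by 0.43 on the log2 scale (SE 0.089, edgeR adjusted p = 0.0045) without overlap, and the call was lost without PGAM1 sgRNA 2 (edgeR adjusted p = 0.065). UGDH, which makes UDP-glucuronate, had 126, 134, 134 and 150.4 CPM with PGAM1 sgRNAs 1 to 4, against 180.1, 188, 162 and 170.5 CPM with non-targeting sgRNAs 1 to 4. UGDH fell by 0.37 on the log2 scale (SE 0.084, edgeR adjusted p = 0.020), a call lost without PGAM1 sgRNA 1, 2 or 3 or non-targeting sgRNA 1 or 2 (edgeR adjusted p up to 0.18). NQO1, GCLM and TXNRD1, widely used readouts of NRF2, had log2 fold changes of -0.13, -0.07 and 0.03 with no call.

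Transcripts of the mitochondrial genome code for core subunits of the respiratory chain and the ATP synthase. All 13 tested protein-coding members lay below 0, with a median of -0.19, and 5 of them were called lower and none higher. Their summed level was 83372 to 96388 CPM with PGAM1 sgRNAs, against 100135 to 107099 CPM with non-targeting sgRNAs. Those ranges did not overlap, and PGAM1 sgRNA 2 was the lowest. MT-CO2, a subunit of cytochrome c oxidase, had 14346, 12891, 13899 and 14125 CPM with PGAM1 sgRNAs 1 to 4, against 17108, 16831, 15958 and 16236 CPM with non-targeting sgRNAs 1 to 4. MT-CYB, the mitochondrially encoded subunit of complex III, had 9795, 8384, 9874 and 9667 CPM with PGAM1 sgRNAs 1 to 4, against 12183, 11741, 11277 and 11052 CPM with non-targeting sgRNAs 1 to 4. MT-ND5, a proton-pumping subunit of complex I, had 1759, 1170.5, 1571 and 1452 CPM with PGAM1 sgRNAs 1 to 4, against 1912, 1916, 1827 and 1853 CPM with non-targeting sgRNAs 1 to 4. None of these 3 overlapped between the groups.

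MT-CO2 fell by 0.29 on the log2 scale (SE 0.045, edgeR adjusted p = 1.6e-05), MT-CYB fell by 0.32 on the log2 scale (SE 0.047, edgeR adjusted p = 4.1e-06) and MT-ND5 fell by 0.37 on the log2 scale (SE 0.063, edgeR adjusted p = 0.00016). MT-CO1 averaged 10041 ± 356 CPM with PGAM1 sgRNAs, against 11241 ± 354 CPM with non-targeting sgRNAs (SD, n = 4 each) and fell by 0.19 on the log2 scale (SE 0.039, edgeR adjusted p = 0.0048), a call lost without non-targeting sgRNA 1 (edgeR adjusted p = 0.057). MT-ATP6 averaged 17415 ± 1317 CPM with PGAM1 sgRNAs, against 19417 ± 924 CPM with non-targeting sgRNAs, overlapped between groups and fell by 0.18 on the log2 scale (SE 0.045, edgeR adjusted p = 0.039), lost without PGAM1 sgRNA 2 or 3 or non-targeting sgRNA 1, 2 or 3 (edgeR adjusted p up to 0.23). MT-CO3 was closest to no change, at -0.07 (adjusted p = 0.73).

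The mitochondrial share of a cell's UMIs is used in the cell filter and can also follow the state of the cell at capture. Its median per sgRNA was 9.61 ± 0.73% with PGAM1 sgRNAs and 11.1 ± 0.32% with non-targeting sgRNAs (SD, n = 4 each, exact two-sided permutation test p = 0.0286, adjusted p = 0.10 over 7 measures). In cells at or under 10% mitochondrial UMIs, a subset that again drops PGAM1 sgRNA 1, none of the 5 called genes passed, with MT-CO2 at -0.19 (adjusted p = 0.20) and MT-CYB at -0.18 (adjusted p = 0.27). That limit selects cells by the sum of these same transcripts, so smaller differences there may follow in part from the selection, which was not tested. In S- and G2/M-scored cells MT-CYB stood at -0.24 (adjusted p = 0.056) and MT-ND5 at -0.26 (adjusted p = 0.19), neither past the threshold. Whether RNA quality has a part in these differences was not tested.

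The nuclear genes of the respiratory chain held 1 call. Of 37 nuclear complex I genes, 1 was lower and none higher (median -0.07), and of 35 genes of complexes III to V none was called (median -0.04). The called gene was NDUFB9, an accessory subunit of complex I, with 202, 206, 228 and 194 CPM with PGAM1 sgRNAs 1 to 4, against 260.2, 251, 256 and 213 CPM with non-targeting sgRNAs 1 to 4. It fell by 0.28 on the log2 scale (SE 0.068, edgeR adjusted p = 0.037), with non-targeting sgRNA 4 inside the PGAM1 range, and the call was lost without PGAM1 sgRNA 1, 2 or 4 or non-targeting sgRNA 1, 2 or 3 (edgeR adjusted p up to 0.23). The 25 tested genes of the TCA cycle held no call, and their median was 0.07.

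No other glycolytic gene was called. The 14 tested genes before the PGAM1 step had a median log2 fold change of -0.07 and the 7 after it -0.02. GAPDH, the dehydrogenase of glyceraldehyde 3-phosphate, had 5736, 6418, 5604 and 6238 CPM with PGAM1 sgRNAs 1 to 4, against 6785, 6387, 6684 and 6778 CPM with non-targeting sgRNAs 1 to 4. Non-targeting sgRNA 2 lay inside the PGAM1 range, and the difference missed the threshold (log2 -0.18, SE 0.045, edgeR adjusted p = 0.051). With DESeq2 GAPDH stood at -0.17 (adjusted p = 0.012) and under the stricter guide rule at -0.25 (adjusted p = 0.027), both past the threshold. PGK1, the enzyme just before PGAM1, averaged 353 ± 49.4 CPM with PGAM1 sgRNAs, against 387 ± 25.8 CPM with non-targeting sgRNAs (adjusted p = 0.55). ENO1, enolase, the enzyme just after it, averaged 458 ± 25.7 CPM with PGAM1 sgRNAs, against 451 ± 47.1 CPM with non-targeting sgRNAs (adjusted p = 0.96). PKM and LDHA, the last steps to pyruvate and lactate, had log2 fold changes of -0.14 and -0.10.

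The branches that leave glycolysis above PGAM1 held no call either. Of 9 pentose phosphate genes none was called (median -0.13). TKT, transketolase, averaged 967 ± 28.5 CPM with PGAM1 sgRNAs, against 1080.4 ± 39.5 CPM with non-targeting sgRNAs, with no overlap but an edgeR adjusted p of 0.26. Of 11 serine and one-carbon genes none was called (median 0.05). PHGDH, PSAT1 and PSPH, the 3 enzymes from 3-phosphoglycerate to serine, had log2 fold changes of 0.08, 0.12 and 0.05. MTHFD2, the mitochondrial folate dehydrogenase, had 274, 257, 270.4 and 242 CPM with PGAM1 sgRNAs 1 to 4, against 214, 227, 217 and 166 CPM with non-targeting sgRNAs 1 to 4. Those groups did not overlap, and the test gave log2 0.28 (SE 0.077, edgeR adjusted p = 0.097).

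TXNIP, whose promoter is shown above, encodes an arrestin that restrains glucose uptake and responds to glucose-derived sugar phosphates through the MondoA and ChREBP factors. TXNIP had 196, 189, 234 and 189 CPM with PGAM1 sgRNAs 1 to 4, against 167, 164, 145 and 146 CPM with non-targeting sgRNAs 1 to 4. Every PGAM1 sgRNA lay above every non-targeting sgRNA, and TXNIP rose by 0.35 on the log2 scale (SE 0.088, edgeR adjusted p = 0.046). Leaving out any 1 of the 8 sgRNAs ended the call (edgeR adjusted p between 0.060 and 0.43). In G1-scored cells the log2 fold change was 0.55 (adjusted p = 0.0072), and in S- and G2/M-scored cells 0.15 (adjusted p = 0.78). It was the 1 call among 6 tested glucose sensing genes, none of them lower, with a list median of 0.05. MLXIP and MLXIPL, which encode MondoA and ChREBP, had log2 fold changes of -0.09 and -0.29, and SLC2A1, the glucose transporter GLUT1, -0.26.

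MT2A was the 1 called gene among 5 tested metallothioneins, small cysteine-rich proteins that bind zinc and copper, and none was lower. MT2A had 923, 802, 742 and 1130.2 CPM with PGAM1 sgRNAs 1 to 4, against 663, 610.3, 652 and 674 CPM with non-targeting sgRNAs 1 to 4. It rose by 0.46 on the log2 scale (SE 0.091, edgeR adjusted p = 0.0026) with no overlap, and sgRNA 4 was the highest. The call was lost without PGAM1 sgRNA 4 (edgeR adjusted p = 0.26). All 5 lay above 0, with a median of 0.46, and MT1X was at 141 ± 16.7 CPM with PGAM1 sgRNAs, against 119 ± 12.6 CPM with non-targeting sgRNAs (adjusted p = 0.35). Members of this family are close in sequence, so reads may be hard to assign.

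NUPR1, a small stress-induced chromatin protein and a target of ATF4, was the 1 higher gene among 24 tested genes of the integrated stress response, with none lower (median -0.01). NUPR1 had 72.0, 51.4, 74.6 and 55.1 CPM with PGAM1 sgRNAs 1 to 4, against 29.2, 35.8, 32.8 and 59.7 CPM with non-targeting sgRNAs 1 to 4. Non-targeting sgRNA 4 lay inside the PGAM1 range. NUPR1 rose by 0.80 on the log2 scale (SE 0.19, edgeR adjusted p = 0.028), a call lost without PGAM1 sgRNA 1 or 3 or non-targeting sgRNA 1, 2 or 3 (edgeR adjusted p up to 0.30). ATF4 itself had a log2 fold change of -0.01 and TRIB3, its target, -0.34, neither called.

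Of the called genes outside these lists, 12 that fell and 6 that rose are described. PSCA, a lipid-anchored surface protein, had 54.0, 24.4, 61.3 and 47.7 CPM with PGAM1 sgRNAs 1 to 4, against 87.6, 82.0, 89.0 and 79.0 CPM with non-targeting sgRNAs 1 to 4. OLFML3, a secreted olfactomedin-like protein, had 188, 164, 175 and 199 CPM with PGAM1 sgRNAs 1 to 4, against 283, 255, 289.9 and 261 CPM with non-targeting sgRNAs 1 to 4. ANXA3, a calcium-dependent phospholipid binder, had 98.1, 111, 130.3 and 109.6 CPM with PGAM1 sgRNAs 1 to 4, against 64.3, 84.0, 81.0 and 60.7 CPM with non-targeting sgRNAs 1 to 4. None of these 3 overlapped between groups, and their calls held in all 8 fits without 1 sgRNA. The call of OLFML3 also held in G1-scored cells (edgeR adjusted p = 0.014) and in S- and G2/M-scored cells (edgeR adjusted p = 0.041). It held as well in cells with at most 10% mitochondrial UMIs (edgeR adjusted p = 0.00053). Those of PSCA and ANXA3 did not hold in all subsets of cells. PSCA fell by 0.83 on the log2 scale (SE 0.14, edgeR adjusted p = 0.00016), OLFML3 fell by 0.61 on the log2 scale (SE 0.11, edgeR adjusted p = 0.00042) and ANXA3 rose by 0.64 on the log2 scale (SE 0.12, edgeR adjusted p = 0.00047). In S- and G2/M-scored cells PSCA stood at -0.54 (adjusted p = 0.44) and ANXA3 at 0.62 (adjusted p = 0.056), and in G1-scored cells ANXA3 stood at 0.63 (adjusted p = 0.13), none of these past the threshold.

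The calls of 5 further genes without overlap depended on which sgRNAs and which cells entered the fit. MIR205HG, the host transcript of miR-205, averaged 514 ± 21.4 CPM with PGAM1 sgRNAs, against 678 ± 42.3 CPM with non-targeting sgRNAs and fell by 0.43 on the log2 scale (SE 0.093, edgeR adjusted p = 0.0088), lost without non-targeting sgRNA 1 (edgeR adjusted p = 0.078). CAPS, the calcium-binding calcyphosine, averaged 31.0 ± 8.96 CPM with PGAM1 sgRNAs, against 51.8 ± 3.30 CPM with non-targeting sgRNAs and fell by 0.78 on the log2 scale (SE 0.15, edgeR adjusted p = 0.0026), lost without PGAM1 sgRNA 3 (edgeR adjusted p = 0.056). LMO4, a LIM-only transcriptional cofactor, averaged 71.6 ± 5.10 CPM with PGAM1 sgRNAs, against 48.1 ± 3.94 CPM with non-targeting sgRNAs and rose by 0.53 on the log2 scale (SE 0.12, edgeR adjusted p = 0.014), lost without PGAM1 sgRNA 2 or 3 or non-targeting sgRNA 2 (edgeR adjusted p up to 0.077). CFAP20, a cilium protein, averaged 63.0 ± 11.1 CPM with PGAM1 sgRNAs, against 40.9 ± 1.35 CPM with non-targeting sgRNAs and rose by 0.58 on the log2 scale (SE 0.12, edgeR adjusted p = 0.0055), lost without PGAM1 sgRNA 2 or 4 or non-targeting sgRNA 1 (edgeR adjusted p up to 0.073). STMN1, which destabilises microtubules, averaged 235 ± 34.7 CPM with PGAM1 sgRNAs, against 174 ± 13.7 CPM with non-targeting sgRNAs and rose by 0.40 on the log2 scale (SE 0.091, edgeR adjusted p = 0.020), lost without PGAM1 sgRNA 1 or 3 or non-targeting sgRNA 1 or 3 (edgeR adjusted p up to 0.18). None of these 5 genes passed under the stricter guide rule or in G1-scored cells. In cells with at most 10% mitochondrial UMIs only MIR205HG and CAPS passed (edgeR adjusted p = 0.010 and 0.014). In S- and G2/M-scored cells only MIR205HG did (edgeR adjusted p = 0.0052).

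The remaining calls were lost in at least 5 of the 8 fits without 1 sgRNA. IGFBP2, an IGF binding protein, fell by 0.46 (log2) and was lost without PGAM1 sgRNA 1, 2 or 3 or non-targeting sgRNA 1, 3 or 4 (edgeR adjusted p up to 0.15). PTGR1, a prostaglandin reductase, fell by 0.29 and was lost without PGAM1 sgRNA 1, 2 or 3 or non-targeting sgRNA 1, 2 or 3 (edgeR adjusted p up to 0.13). EPHA4, an ephrin receptor, fell by 0.89, overlapped between groups and was lost without PGAM1 sgRNA 1, 2, 3 or 4 or non-targeting sgRNA 1, 3 or 4 (edgeR adjusted p up to 0.35). POLD4, a DNA polymerase delta subunit, fell by 0.29 and was lost without PGAM1 sgRNA 1, 2, 3 or 4 or non-targeting sgRNA 1, 3 or 4 (edgeR adjusted p up to 0.18). YIF1A, a protein of transport between ER and Golgi, fell by 0.32 and was lost without PGAM1 sgRNA 1, 2, 3 or 4 or non-targeting sgRNA 1, 2 or 3 (edgeR adjusted p up to 0.19). GNG11, a G protein gamma subunit, rose by 0.59 and was lost without PGAM1 sgRNA 1, 2, 3 or 4 or non-targeting sgRNA 1, 3 or 4 (edgeR adjusted p up to 0.32). AHI1, a primary cilium protein, rose by 0.83 and was lost without PGAM1 sgRNA 2, 3 or 4 or non-targeting sgRNA 1, 2, 3 or 4 (edgeR adjusted p up to 0.28). B3GALT6, a galactosyltransferase of proteoglycan linkers, the homeobox gene IRX3 and LEPROTL1 fell by 1.03, 0.99 and 0.42 and were lost in all 8 such fits, with edgeR adjusted p up to 0.29, 0.13 and 0.28. The 3 called genes beyond the naming rule are given because so few remained. S100A6, a calcium-binding protein, fell by 0.25 and was lost without PGAM1 sgRNA 1, 3 or 4 or non-targeting sgRNA 1, 2, 3 or 4 (edgeR adjusted p up to 0.22). CSTB, the protease inhibitor cystatin B, fell by 0.25 and was lost without PGAM1 sgRNA 2 or 3 or non-targeting sgRNA 1, 3 or 4 (edgeR adjusted p up to 0.22). NEURL1, a ubiquitin ligase, fell by 0.77 and was lost without PGAM1 sgRNA 2, 3 or 4 or non-targeting sgRNA 1, 2 or 3 (edgeR adjusted p up to 0.40), and it was the 1 called gene whose PGAM1 sgRNAs lay on both sides of the non-targeting mean.

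**Figure D4:**
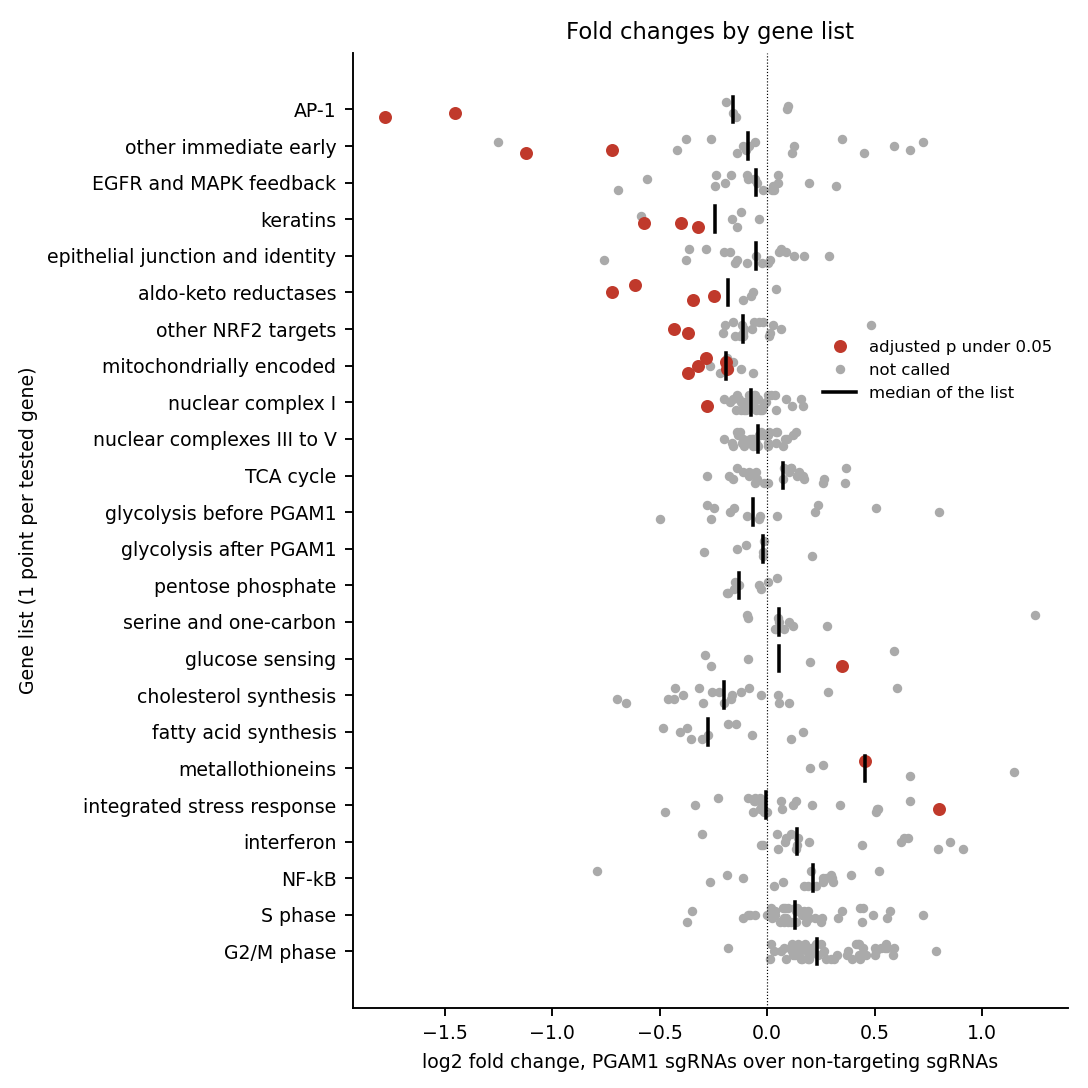
Log2 fold changes of PGAM1 sgRNAs over non-targeting sgRNAs (horizontal axis) for the tested genes (points) of 24 gene lists (rows), with called genes in red and the list median as a black bar. FOS and FOSB lie far left in the AP-1 row at -1.78 and -1.45, and all points of the mitochondrially encoded and keratin rows lie below 0.

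Lists of lipid synthesis, immune signalling and the cell cycle held no call over non-targeting sgRNAs. The median was -0.28 over 11 fatty acid synthesis genes and -0.20 over 21 cholesterol synthesis genes. FASN, fatty acid synthase, averaged 35.4 ± 3.90 CPM with PGAM1 sgRNAs, against 44.7 ± 0.669 CPM with non-targeting sgRNAs (adjusted p = 0.32), and SCD, the stearoyl-CoA desaturase, 76.2 ± 8.71 CPM with PGAM1 sgRNAs, against 94.5 ± 4.80 CPM with non-targeting sgRNAs (adjusted p = 0.14). Neither gene overlapped between groups. Over 19 interferon-induced genes the median was 0.14, and over 18 NF-kB genes 0.22. The medians of the heat shock, ER chaperone, p53, hypoxia, ribosome biogenesis and cytosolic ribosomal protein lists were 0.07, 0.01, 0.01, -0.07, -0.08 and 0.04, with no call.

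No cell cycle gene was called, although most lay above 0. Of 54 tested G2/M genes 53 lay above 0 (median 0.23), and of 42 S phase genes 35 (median 0.13), against 5923 of all 11570 tested genes. The summed G2/M level was 3484 to 5192 CPM with PGAM1 sgRNAs, against 3197 to 3902 CPM with non-targeting sgRNAs, with overlap. PGAM1 sgRNA 3 was the highest, and PGAM1 sgRNA 2 lay inside the non-targeting range. BIRC5, survivin, had 66.0, 70.4, 109 and 73.7 CPM with PGAM1 sgRNAs 1 to 4, against 56.1, 75.6, 56.7 and 57.8 CPM with non-targeting sgRNAs 1 to 4, and did not pass (log2 0.43, edgeR adjusted p = 0.084). In thinned cells 18.9, 13.0, 13.1 and 9.77% were scored S with PGAM1 sgRNAs 1 to 4, against 11.2, 9.32, 10.1 and 7.79% with non-targeting sgRNAs 1 to 4 (exact permutation test p = 0.0857). The share scored G2/M was 43.2, 25.9, 32.7 and 34.6% with PGAM1 sgRNAs 1 to 4, against 28.5, 34.2, 26.6 and 35.1% with non-targeting sgRNAs 1 to 4 (exact permutation test p = 0.629, adjusted p = 0.73). Both ranges overlapped, and PGAM1 sgRNA 1, with 37 cells, was the highest in each.

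Median genes per thinned cell were 1946 ± 23.1 with PGAM1 sgRNAs and 1914 ± 21.7 with non-targeting sgRNAs (exact permutation test p = 0.143), and median guide UMIs 12 ± 1.15 with PGAM1 sgRNAs and 16.0 ± 7.26 with non-targeting sgRNAs (SD, n = 4 each, exact permutation test p = 0.40). The labelled epithelial line was checked with its markers. EPCAM lay between 264 and 280.2 CPM with PGAM1 sgRNAs and between 261 and 285 CPM with non-targeting sgRNAs, while the lung markers NKX2-1 and NAPSA were at or near 0, with at most 1.41 CPM and 0.98 CPM in any of the 8 sgRNAs. The summed epithelial markers, which include KRT8, KRT18 and KRT19, were 8722 to 9571 CPM with PGAM1 sgRNAs, against 10778 to 12214 CPM with non-targeting sgRNAs. Summed immune markers were 6.00 to 23.0 CPM with PGAM1 sgRNAs, against 11.8 to 27.9 CPM with non-targeting sgRNAs, with CD3E and LYZ at 0 in all 8 sgRNAs. Fibroblast and endothelial markers summed to at most 3.52 and 8.12 CPM, with COL1A2, DCN, PECAM1 and VWF at 0 in all 8.

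PGAM1 sgRNAs were also set against guides to other genes, where FOS, keratins and AKR1B10 were lower as well. The comparison took the 18 sgRNAs to CTNNB1, JUN and CTCF, and 96 of 11570 genes were called (0.83%), 39 higher (0.337%) and 57 lower (0.493%). Of these, 37 were also called over non-targeting sgRNAs, 82.2% of the 45 genes called there and 38.5% of the 96, but both comparisons share the PGAM1 sgRNAs. In fits without 1 PGAM1 sgRNA, 29 of the 96 calls held each time. FOS averaged 30.2 ± 6.15 CPM with PGAM1 sgRNAs and 98.0 ± 17.0 CPM with the other 18 sgRNAs (log2 -1.76, adjusted p = 2.2e-15). FOSB (log2 -1.54), EGR1 (-1.16), KRT19 (-0.52), KRT8 (-0.41), AKR1B10 (-0.83), AKR1C1 (-0.76) and MT-CO2 (-0.26) were called too and held without each PGAM1 sgRNA. TXNIP, with 202 ± 21.6 CPM with PGAM1 sgRNAs and 149.6 ± 15.9 CPM with the other 18 sgRNAs, rose by 0.42 on the log2 scale (SE 0.073, edgeR adjusted p = 0.00011) and held as well.

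In this comparison, members of lists without a call above passed. Of 19 interferon-induced genes 3 were higher and none lower. IFI44L averaged 23.2 ± 3.26 CPM with PGAM1 sgRNAs and 11.97 ± 4.68 CPM with the other 18 sgRNAs, and it rose by 0.94 on the log2 scale (SE 0.20, edgeR adjusted p = 0.0037). OAS3, a sensor of double-stranded RNA, rose by 0.71 on the log2 scale (SE 0.17, edgeR adjusted p = 0.021), and IFITM3, which blocks virus entry, rose by 0.31 on the log2 scale (SE 0.069, edgeR adjusted p = 0.0079). These 3 calls were lost without PGAM1 sgRNA 4 (edgeR adjusted p = 0.21) for IFI44L, without PGAM1 sgRNA 2 or 4 (edgeR adjusted p up to 0.20) for OAS3 and without PGAM1 sgRNA 4 (edgeR adjusted p = 0.47) for IFITM3. PARP14, chosen after its value was seen, rose by 0.51 on the log2 scale (SE 0.097, edgeR adjusted p = 0.00071), and its call held without each PGAM1 sgRNA. Of the 13 mitochondrially encoded genes, 9 were lower and none higher, with MT-ND1 at 4751 ± 477 CPM with PGAM1 sgRNAs and 5642 ± 332 CPM with the other 18 sgRNAs (log2 -0.27, adjusted p = 4.5e-05).

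DUSP1 and IER2 joined EGR1 and KLF6 as lower immediate early genes, 4 of 18 with none higher. DUSP1 averaged 5.83 ± 1.70 CPM with PGAM1 sgRNAs and 13.7 ± 3.56 CPM with the other 18 sgRNAs. It fell by 1.26 on the log2 scale (SE 0.30, edgeR adjusted p = 0.013), lost without PGAM1 sgRNA 3 or 4 (edgeR adjusted p up to 0.14). IER2 averaged 83.3 ± 5.99 CPM with PGAM1 sgRNAs and 112 ± 17.5 CPM with the other 18 sgRNAs. It fell by 0.41 on the log2 scale (SE 0.098, edgeR adjusted p = 0.016), lost without PGAM1 sgRNA 1, 2 or 4 (edgeR adjusted p up to 0.17). GAPDH averaged 5999 ± 391 CPM with PGAM1 sgRNAs and 6609 ± 279.7 CPM with the other 18 sgRNAs. It fell by 0.16 on the log2 scale (SE 0.036, edgeR adjusted p = 0.0072), lost without PGAM1 sgRNA 1 or 3 (edgeR adjusted p up to 0.24). FASN averaged 35.4 ± 3.90 CPM with PGAM1 sgRNAs and 47.6 ± 7.43 CPM with the other 18 sgRNAs. It fell by 0.51 on the log2 scale (SE 0.13, edgeR adjusted p = 0.025), lost without PGAM1 sgRNA 3 or 4 (edgeR adjusted p up to 0.30). Of 54 G2/M genes 2 were higher, BIRC5 (log2 0.45) and KIF20B (0.47), both lost without PGAM1 sgRNA 3 (adjusted p = 0.52 and 0.45). Of 84 cytosolic ribosomal protein genes 6 were higher and none lower.

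Against the 6 ATF4 sgRNAs 349 genes were called (3.02%), 179 higher (1.55%) and 170 lower (1.47%). FOS, FOSB and KLF6 were lower in PGAM1 cells there too (log2 -1.62, -1.45 and -1.13), and 6 of 11 serine and one-carbon genes were higher, with PHGDH at 0.54 (adjusted p = 9.8e-10). None of those 11 was called over non-targeting sgRNAs. NUPR1, of the integrated stress response list, stood at 2.09 (adjusted p = 1.2e-11). It averaged 63.3 CPM with PGAM1, 12.7 CPM with ATF4 and 39.4 CPM with non-targeting sgRNAs. KLF6 averaged 24.5, 51.2 and 37.2 CPM in the same order. For both genes the ATF4 sgRNAs themselves lay away from the non-targeting mean, so these differences are not those of PGAM1 cells alone. AKR1C1 did not pass there (log2 -0.07, adjusted p = 0.82). It averaged 340 CPM with PGAM1, 356 CPM with ATF4 and 506 CPM with non-targeting sgRNAs, so its lower level was not particular to PGAM1 sgRNAs. AKR1C3 (log2 0.08, edgeR adjusted p = 0.55) and GPX2 (log2 0.04, edgeR adjusted p = 0.92) did not differ from ATF4 sgRNAs either. Of 8 tested aldo-keto reductases 2 were lower there, AKR1B10 (log2 -0.38) and AKR1C2 (log2 -0.26).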

How the data were processed

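Direct-capture guides and 3' transcripts were measured in 1 pooled PC9 culture and deposited as 1 matrix of UMI counts. Per the file headers, the authors made these counts with Cell Ranger 6.1.2, and the submitters' processing notes name hg38. The sources used here give no alignment settings, no doublet removal and no handling of reads shared by gene copies. Cells with at least 1000 gene UMIs, 500 genes and at most 20% mitochondrial UMIs were kept, which was 10142 of 10847 barcodes, and 5556 (54.8%) had 1 assigned sgRNA. No doublet caller was run, and the guide rule drops cells in which a second guide passes 20% of guide UMIs. Scores for S and G2/M used scanpy 1.11.5 under Python 3.11.15.

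Gene counts were summed per sgRNA, and all 34 sgRNAs with at least 20 cells entered 1 edgeR 4.0.16 quasi-likelihood fit (R 4.3.3, limma 3.58.1, TMM scaling, low counts filtered by filterByExpr), with Benjamini-Hochberg adjustment over 11570 genes and a threshold of 0.05. Printed CPM use the plain total of gene UMIs. Cell measures were compared per sgRNA by exact permutation. Genes per cell and the shares of cells with a PGAM1 UMI or scored S or G2/M were taken after thinning to 5000 UMIs. Thinning keeps depth from setting those measures. Gene UMIs, guide UMIs and the mitochondrial share were taken without thinning. The scripts were tested on simulated data with known changes. The sgRNAs, not the cells, are the replicates. The sgRNA sums held 499659 to 3869915 UMIs in these 8 sgRNAs, and low genes in the smallest sums rest on few counts.

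Genes named are PGAM1 and its relatives, its 10 nearest tested genes, called list members, and of other called genes up to 12 rises and 12 falls with a mean of at least 10 CPM and 1 direction in all 4 sgRNAs. Up to 2 genes with the smallest p are added in lists without a call, and some other list members are given for their role, outside this rule. The members and the 34 lists were chosen with earlier results of these data known. Of 36601 gene IDs 36366 matched the name table. DESeq2 1.42.0, other scaling, filters, guide rules, cell subsets and leaving out each sgRNA were the alternatives. The sequences of the sgRNAs were not used here, and 1 called gene is not reported here.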

Additional observations from a re-analysis of the deposited data

Results flagged for a closer look

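Each group of 4 sgRNAs was checked for an sgRNA far from the other 3, by the share of the group's range taken by the gap to its nearest neighbour (above Dixon's 95% value for 4 samples). This was met in 8 of 182 groups, and chance alone gives about 1 in 20. PGAM1 sgRNA 3 was high for TXNIP, with 234 CPM. PGAM1 sgRNA 1 was high for KLF6, with 32.0 CPM, and low for AKR1C3, with 558 CPM. For EPHA4 it was PGAM1 sgRNA 1 again, with 8.01 CPM. PGAM1 sgRNA 2 was low for MT-CYB, with 8384 CPM, and for the median mitochondrial share, with 8.52%. Non-targeting sgRNA 4 stood apart for IRX3, with 24.1 CPM, and non-targeting sgRNA 2 was high for BIRC5, with 75.6 CPM.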

How the results depend on the processing

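The PGAM1 transcript remained called under every alternative run. The 45 genes called over non-targeting sgRNAs became 91 with no filter on low counts, 76 with only the compared groups in the fit, 26 under the stricter guide rule (10 UMIs, 90%), 21 at a limit of 10% mitochondrial UMIs, 18 in G1-scored and 11 in S- and G2/M-scored cells. Without 1 sgRNA they numbered 19 to 36, lowest without non-targeting sgRNA 1, with 21 without PGAM1 sgRNA 3 and 28 without non-targeting sgRNA 3. Over CTNNB1, JUN and CTCF sgRNAs the 96 calls became 146 with no filter, 148 with DESeq2, 51 under the stricter rule, 33 at the mitochondrial limit, 45 in G1 and 43 in S and G2/M, and 46 to 74 without 1 PGAM1 sgRNA (46 without sgRNA 4, 61 without sgRNA 2). Over ATF4 sgRNAs the 349 became 176, 107, 118 and 215 in those last 4 settings, and 199 to 305 without 1 PGAM1 sgRNA (199 without sgRNA 4). The subsets hold fewer cells, and the G1 and mitochondrial ones drop PGAM1 sgRNA 1. For the other changes the cause was not tested.

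The difference in median mitochondrial share was -0.167 percentage points at the 10% limit, which caps this same share (exact permutation test p = 0.743). That in the S share was 4.0 points under the looser rule (3 UMIs, 60%, exact permutation p = 0.0286) and -0.107 at the mitochondrial limit, and that in the G2/M share 5.69 points when thinned to 3000 UMIs (exact permutation p = 0.0286). These p are unadjusted. For the G2/M share the exact permutation p was 0.66 under the stricter rule, 0.34 under the looser rule and 0.17 without thinning. For the S share it was 0.057 under the stricter rule and without thinning. The median depth difference turned to -39.5 UMIs under the looser rule and -235.8 UMIs at the mitochondrial limit. Of uncalled genes, BPGM turned to 0.23 in G1 (-0.32 to 0.013 without 1 sgRNA), EREG to 0.14 at the mitochondrial limit, NOP56 to 0.015 under the stricter rule, and POLD3 and BIRC5 to -0.40 and -0.28 in G1. RRP12 turned to 0.42 under the stricter rule and 0.034 at the mitochondrial limit (-0.24 to 0.17 without 1 sgRNA), and EXOSC1 to -0.17 under the stricter rule and -0.12 in G1 (-0.026 to 0.15 without 1 sgRNA). No paired analysis was possible because sgRNA numbers only name guides and pair nothing. With 4 sgRNAs a group, the smallest exact p is 0.0286.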
